A study of Mus musculus with 12 samples.

Results

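The glial marker genes of the mouse adrenal gland were read in whole-adrenal RNA from 3 groups of 2-month-old female mice. Glia of this organ are Schwann cells, which wrap or ensheath the axons of the splanchnic nerve, and sustentacular cells, which lie between the chromaffin cells of the medulla and support them. Both descend from the neural crest. Their lineage depends on the transcription factor SOX10 and on neuregulin signals received through the ERBB3 receptor, and Schwann cell precursors that arrive along the nerve give rise to many chromaffin cells during development.

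The members were taken by name from the deposited gene table and were Mbp, S100b, Sox10, Erbb3, Cdh19 and Foxd3, that is 6 of 24421 genes, and all 6 were listed with a mean above 0. The samples were 4 control, 4 Abca1 cKO and 4 Abcg1 cKO libraries. Animals were on a mixed sv129-C57BL/6 background. Abca1 cKO and Abcg1 cKO animals carried a Cre recombinase placed in the Cyp11b2 (aldosterone synthase) locus and 2 conditional alleles of Abca1 or of Abcg1. The series description gives the controls Cre and no conditional allele, whereas the study's methods also allow littermates with 1 conditional allele, so the exact genotype of each control is not known here. Cyp11b2 is a gene of the steroid-producing cortex, so the driver is not one of glial cells, and whole glands cleared of fat were extracted.

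The values were the authors' means of normalized counts, 1 over the 4 Abcg1 cKO libraries and 1 over the 8 control and Abca1 cKO libraries together (the combined group). No value of a single library could be assigned to a group by its name, so the spread between animals was not read, no test was made, and control cannot be told apart from Abca1 cKO. Higher and lower below describe 2 means and nothing more. Log2 ratios were Abcg1 cKO over combined group with a pseudocount of 1, and a ratio of 1.2 in either direction, the fold the study used, served as a descriptive line at 0.26 on the log2 scale. Abcg1 itself, counted over its whole length, had means of 305 in the combined group and 250 in Abcg1 cKO. Abca1, deleted in 4 of the 8 libraries of the combined group, had means of 7791 and 10057. In whole glands, fewer cells of a type and less RNA per cell cannot be told apart.

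Of the 6 glial markers, 5 had a higher mean and 1 a lower mean in Abcg1 cKO adrenals, and most of these differences were small. The median log2 ratio over the 6 was 0.12, against 0.00 over 15103 genes with a mean of at least 5, of which 49.7% had a higher mean in Abcg1 cKO. Foxd3 and S100b were past 1.2-fold in the higher direction, 2 of 6, where 11.1% of the 15103 genes were. None of the 6 was past it in the lower direction, where 13.7% of these genes were. With so few members, and with S100b at 0.27 almost on the line, the count of 2 carries little weight. Together the 6 genes summed to a mean normalized count of 582 in the combined group and 576 in Abcg1 cKO.

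**Figure D1:**
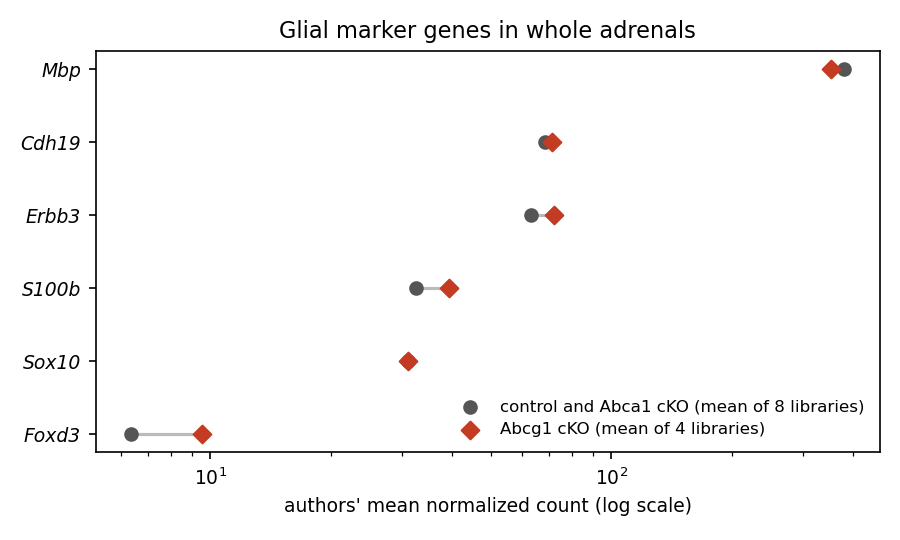
Authors' mean normalized count (x axis, log scale) of the 6 glial marker genes. Grey circles are the mean of 8 control and Abca1 cKO libraries and red diamonds the mean of 4 Abcg1 cKO libraries, with no error shown because only means could be used. The 2 marks touch for Sox10, at 31.1 and 31.2, and lie farthest apart for Foxd3, at 6.35 and 9.55.

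Sox10 and Foxd3 are the transcription factors of the group. Sox10 encodes a SOXE factor that is required for all peripheral glia. Its mean normalized count was 31.1 in the combined group and 31.2 in Abcg1 cKO, a log2 ratio of 0.00. Among the 6 it was the gene whose means differed least. In the GRCm38 (mm10) assembly Sox10 spans 79154908 to 79165240 on the minus strand of chromosome 15, with 4 annotated transcripts that cover 3051 exonic bases.

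Foxd3 encodes a forkhead factor that marks neural crest cells and early glial precursors. It was the least abundant member, with mean normalized counts of 6.35 in the combined group and 9.55 in Abcg1 cKO. The log2 ratio of 0.52 was the largest of the 6. At such a level ratios of means spread widely. Among 1536 genes with a mean between 0.5 and 2 times that of Foxd3, the log2 ratios ran from -1.32 at the 5th to 0.81 at the 95th percentile, and 21.9% were past 1.2-fold in the higher direction. Foxd3 lies on chromosome 4 from 99656299 to 99658622 on the plus strand, in 1 annotated transcript of 2324 exonic bases. An annotated miRNA gene lies within its exon on the same strand.

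S100b encodes a calcium-binding protein that is widely used to stain Schwann and sustentacular cells. Its mean normalized count was 32.5 in the combined group and 39.3 in Abcg1 cKO (log2 ratio 0.27). Of 1923 genes of like level, 16.7% were past 1.2-fold in the higher direction. S100b had almost the same count as Sox10, but over a transcript of 1484 exonic bases. Per kilobase of exon it was therefore the second most abundant member. The gene lies on chromosome 10 from 76253853 to 76261159 on the plus strand, and its span overlaps that of Dip2a on the opposite strand, though their annotated exons do not overlap.

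The start regions of Foxd3 and S100b are shown because no other member was matched to a promoter entry. Both are from RefSeq for GRCm38.p6 and run 5′ to 3′ from 250 bases before to 50 after the annotated start. A promoter entry was matched for 2 of the 6 members. Foxd3 occupies chr4:99656049-99656348 on the plus strand, and the capitals mark the E-box CACGTG, whose first base lies 217 bases before the start. S100b occupies chr10:76253586-76253885 on the plus strand, and the capitals mark CCAAT and its reverse complement ATTGG, whose first bases lie 202 and 20 bases before the start.
Foxd3: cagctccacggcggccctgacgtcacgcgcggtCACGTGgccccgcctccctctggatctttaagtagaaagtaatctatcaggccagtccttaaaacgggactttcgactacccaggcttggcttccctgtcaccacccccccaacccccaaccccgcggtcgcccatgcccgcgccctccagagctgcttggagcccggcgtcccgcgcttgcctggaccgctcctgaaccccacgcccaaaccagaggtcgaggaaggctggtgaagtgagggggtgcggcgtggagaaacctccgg
S100b: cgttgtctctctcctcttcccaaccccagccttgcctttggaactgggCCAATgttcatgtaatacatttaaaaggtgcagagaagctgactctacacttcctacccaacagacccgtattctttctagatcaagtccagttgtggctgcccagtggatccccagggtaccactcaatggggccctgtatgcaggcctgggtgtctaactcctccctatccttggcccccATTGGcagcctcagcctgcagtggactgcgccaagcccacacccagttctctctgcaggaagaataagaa

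The Foxd3 region held 25 CpG dinucleotides and a GC content of 65.7%, and the S100b region held 3 and 53.7%, against a median of 7 and 52.7% over 32851 promoter entries. The motif CACGTG, searched on both strands, was found in 7.15% of all entries, and CCAAT in 37.4%. ACAAAG and ACAATG, letters of the kind that SOX proteins bind, were found in neither region and in 18.7% and 12.6% of all entries. TATAAA was in neither region and in 13.6% of all entries. These matches describe only the letters in the window.

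Erbb3 and Cdh19 encode membrane proteins. ERBB3 is the neuregulin receptor of the Schwann cell lineage. Its mean normalized count was 62.9 in the combined group and 71.8 in Abcg1 cKO (log2 ratio 0.19), above the 75th percentile of 0.14 among 2241 genes of like level and below their 95th percentile of 0.53. The gene lies on chromosome 10 from 128567523 to 128589652 on the minus strand, with 6016 exonic bases.

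Cdh19 encodes a type II cadherin that marks Schwann cell precursors and later glia of peripheral nerve. It was close in level to Erbb3, with mean normalized counts of 68.5 and 71.0 (log2 ratio 0.05). This lay between the 25th percentile of -0.28 and the 75th percentile of 0.14 of genes of like level. Cdh19 lies on chromosome 1 from 110888326 to 110977584 on the minus strand, with 4280 exonic bases in 2 annotated transcripts.

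Mbp encodes myelin basic protein, which compacts the myelin sheath. It was the most abundant member and the only one with a lower mean in Abcg1 cKO, at 381 in the combined group and 353 in Abcg1 cKO (log2 ratio -0.11). Among 4545 genes of like level the 25th percentile was -0.13, so this difference was within the middle range of such genes. Of the 6 members, 5 had a higher ratio than the median of genes of like level, which ran from -0.13 for Foxd3 to -0.02 for Mbp, and Mbp was the exception. Mbp made up 65.4% of the summed count of the 6 markers in the combined group and 61.3% in Abcg1 cKO. Without it the other 5 summed to 201 and 223. Mbp lies on chromosome 18 from 82475146 to 82585637 on the plus strand. Its 16 annotated transcripts include the longer Golli forms, which are also made outside myelin-forming cells, and a count per gene does not separate them.

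**Figure D2:**
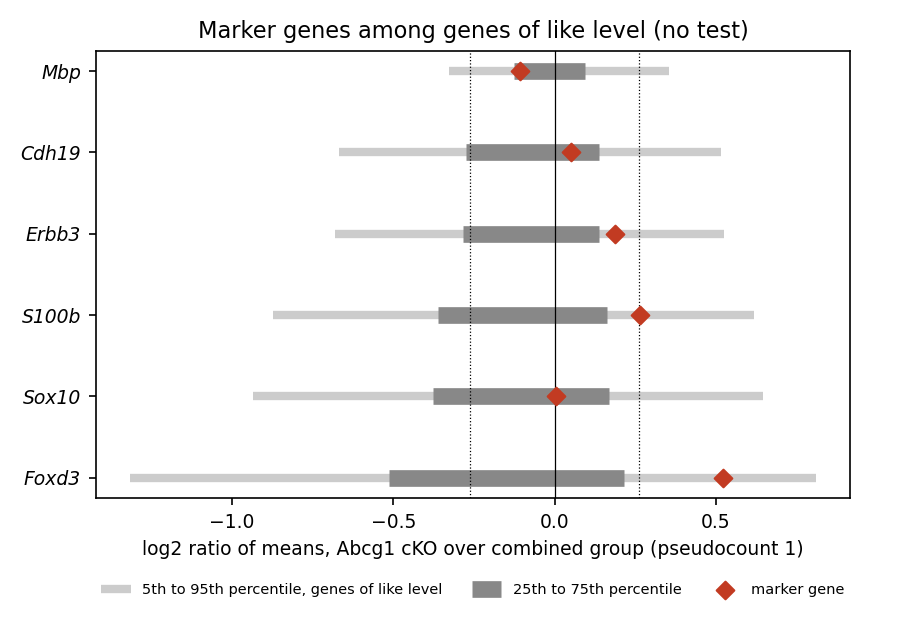
Log2 ratio of the group means (x axis, Abcg1 cKO over combined group, pseudocount 1) of the 6 markers as red diamonds, over the 5th to 95th (light bars) and 25th to 75th percentiles (dark bars) of genes with a mean between 0.5 and 2 times that of the marker. Dotted lines are 1.2-fold. The bars describe how ratios vary among genes and are not errors between animals, and all 6 diamonds lie within the light bars, with Foxd3 highest at 0.52.

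Levels between genes were compared per kilobase of annotated exon. On this scale the order in both groups was Mbp, S100b, Cdh19, Erbb3, Sox10 and Foxd3. In the combined group the levels per kilobase were 44.9 for Mbp, 21.9 for S100b, 16 for Cdh19, 10.5 for Erbb3, 10.2 for Sox10 and 2.73 for Foxd3. In Abcg1 cKO they were 41.7, 26.5, 16.6, 11.9, 10.2 and 4.11 in the same order. The neighbours Erbb3 and Sox10 were nearly level in the combined group, and whether any neighbours differ beyond the spread between animals was not tested. From Foxd3 to Mbp the level per kilobase over all 12 libraries spanned 13.7-fold.

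The other glial genes bear on what the 6 markers stand for. Besides members, 16 myelin genes and 24 genes of the Schwann lineage and non-myelinating glia were listed, of which 11 and 22 had a mean of at least 5. The genes named from here on include some that were chosen after their values were seen. Mag, an adhesion molecule of the inner myelin membrane, had mean normalized counts of 11.9 in the combined group and 8.29 in Abcg1 cKO. Per kilobase it was at 2.93 and 2.04, where Mbp was at 44.9 and 41.7. Prx, a scaffold protein of myelinating Schwann cells, had mean normalized counts of 94.6 in the combined group and 82.8 in Abcg1 cKO. Its levels per kilobase were 17.0 and 14.8. The levels per kilobase of the 22 other Schwann lineage and non-myelinating glia genes ran from 2.42 for Sox2 to 119 for Atp1b2 in the combined group. Ngfr, the low-affinity neurotrophin receptor, was at 41.9 per kilobase in the combined group and 46.6 in Abcg1 cKO, Entpd2, an ectonucleotidase, at 48.5 and 52.2, and Scn7a, a sodium channel of non-myelinating Schwann cells, at 39.2 and 41.2. Others were lower on this scale, such as Gpr37l1 at 14.6 and 21.6 and Gfap at 8.17 and 11.4.

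**Figure D3:**
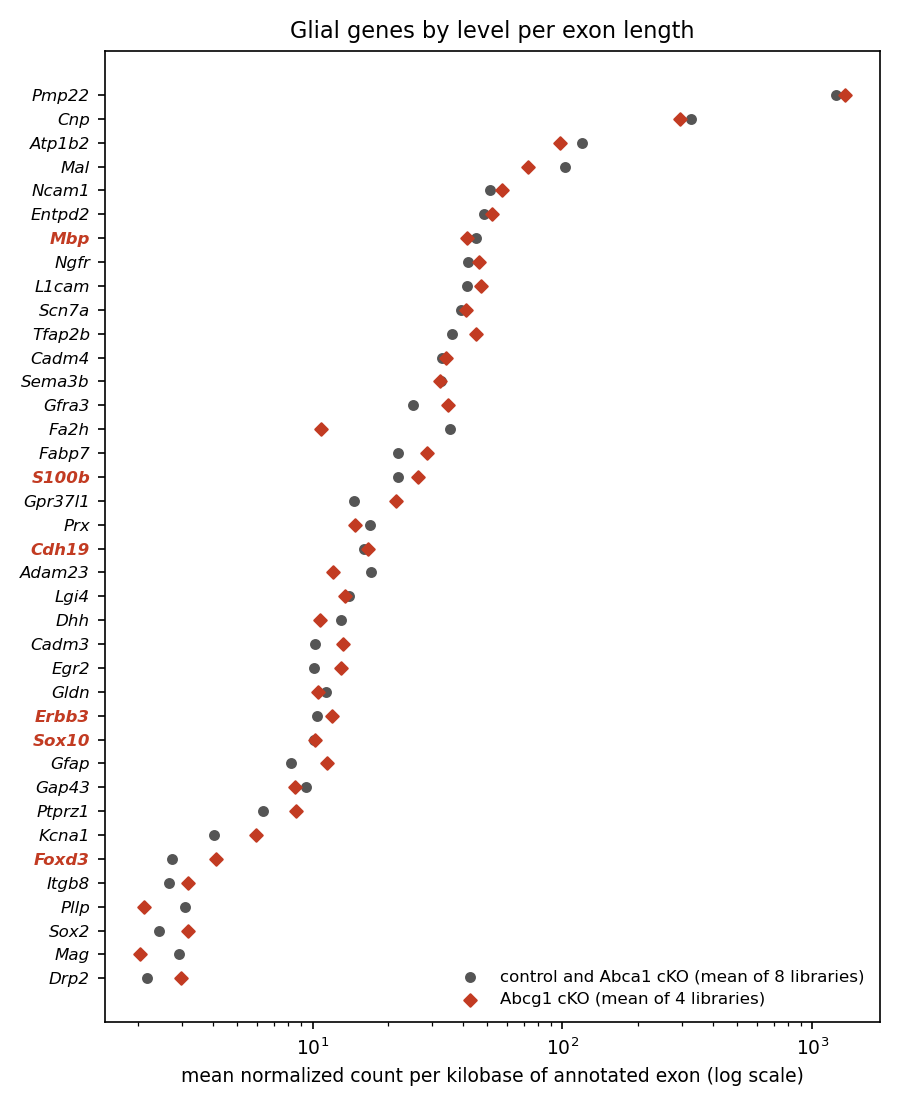
Mean normalized count per kilobase of annotated exon (x axis, log scale) for the members (red names) and most other listed glial genes with a mean of at least 5. Grey circles are the mean of 8 control and Abca1 cKO libraries and red diamonds the mean of 4 Abcg1 cKO libraries. Mbp sits at 44.9 and 41.7, Mag near the bottom at 2.93 and 2.04, and Fa2h has the widest gap between its marks.

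The 2 groups of glial genes differed in the direction of their medians. Their summed counts differed less, with log2 ratios without the members of -0.01 for myelin genes and 0.06 for Schwann lineage genes. Genes of like level to the 6 members also had medians below 0, from -0.13 to -0.02. Of the 11 other myelin genes with a mean of at least 5, 3 had a higher and 8 a lower mean in Abcg1 cKO. Past 1.2-fold were 2 in the higher and 4 in the lower direction, beside 11.1% and 13.7% of all genes with such a mean. Among the 4, Pllp reached the minimum of 5 on the mean over all 12 libraries, at 6.46 in the combined group and 4.41 in Abcg1 cKO. The median log2 ratio of the 11 was -0.15. The most abundant were Pmp22, a myelin membrane protein also made by many other cells, with a log2 ratio of 0.11, Cnp, a phosphodiesterase of myelin, with -0.15, and Mal, a proteolipid shared with epithelia, with -0.49. Fa2h, which makes 2-hydroxylated myelin lipids and is also expressed in epithelia, had the lowest ratio of the list, at 107 in the combined group and 32.5 in Abcg1 cKO (log2 ratio -1.69). Egr2, the transcription factor that drives myelination, went the other way, at 34.6 and 44.0 (log2 ratio 0.34).

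Of the 22 other genes of the Schwann lineage and non-myelinating glia, 16 had a higher and 6 a lower mean in Abcg1 cKO, with a median log2 ratio of 0.17. Past 1.2-fold were 9 in the higher and 3 in the lower direction, beside 11.1% and 13.7% of all genes with a mean of at least 5. One of the 9, Sox2, passed this limit on the mean over all 12 libraries while its combined group mean was 4.99. Among the 9 were also Gpr37l1, a receptor of satellite glia, at 33.2 and 49.0 (log2 ratio 0.55), Gfap, the glial intermediate filament, at 34.5 and 48.0 (0.47), and Fabp7, a brain-type fatty acid-binding protein of immature glia, at 27.4 and 35.8 (0.37). The rest of the 9 were Kcna1 (0.54), Gfra3 (0.46), Ptprz1 (0.43), Cadm3 (0.36) and Tfap2b (0.32). Which cells of the gland made these transcripts was not tested. The most abundant of the list were Ncam1 and L1cam, cell adhesion molecules shared with neurons and chromaffin cells, with log2 ratios of 0.16 and 0.18, and Atp1b2, a sodium pump subunit, with -0.28. The 3 genes past 1.2-fold in the lower direction were Atp1b2, Adam23, a synaptic adhesion protein, at 306 and 216 (-0.50), and Dhh, the hedgehog ligand of Schwann cells, at 57.2 and 46.9 (-0.28). No spread between animals stands behind these counts.

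In the neuregulin and ErbB pathway, 12 of 17 genes with a mean of at least 5 had a higher mean in Abcg1 cKO, and the median log2 ratio was 0.09. These counts hold the member Erbb3, and without it they were 11 of 16 with a median of 0.07. Among the ligands, Nrg1, the axonal signal to Schwann cells, was at 12.6 in the combined group and 10.7 in Abcg1 cKO. Nrg3 and Nrg4 had higher means, with log2 ratios of 0.49 and 0.80, and Nrg2 a lower one of -0.31. Among the receptors, Erbb2, the kinase partner with which ERBB3 signals, had a log2 ratio of -0.30 at 127 and 103, opposite in sign to that of Erbb3. Egfr stood at 158 and 176, and Erbb4 was low, at 1.96 and 4.65. Of the shared signalling genes, which were the most abundant, the adaptors Grb2 and Shc1 had log2 ratios of 0.01 and 0.09, and the sheddases Adam10 and Adam17 had 0.10 and 0.22.

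Relatives of the members were read in the same way. Of the SOXE factors, Sox8 was at 20.1 in the combined group and 36.4 in Abcg1 cKO (log2 ratio 0.83), Sox9 at 22.1 and 24.6 (0.15), and Sox10 at 0.00. Sox8 was thus the only one of the 3 past 1.2-fold. Sox4, the most abundant SOX gene read, had a log2 ratio of -0.17. The log2 ratios of Sox5, Sox6, Sox2 and Sox11 were 0.03, 0.07, 0.33 and -0.69. Of 7 neural crest factors with a mean of at least 5, 4 had a higher and 3 a lower mean. The members Foxd3 and Sox10 are counted in this list, and both were among the 4. Of the others, Tfap2b was at 0.32 and Ets1 at -0.16. In the S100 family, S100b was a minor member, at 21.9 per kilobase in the combined group where S100a1 was at 1363 and S100a10 at 1957. S100a11, the most abundant per kilobase at 2319, had a log2 ratio of 0.00, S100a1 and S100a16 had 0.18 and S100a10 had 0.20. S100a13, S100a6 and S100a4 lay between 0.07 and 0.15. S100pbp, kept in this list although it encodes a binding partner of S100P and not an S100 protein, had 0.13. S100b had the highest ratio of the 11 listed genes with a mean of at least 5. S100a8 and S100a9, which neutrophils make in quantity, had mean normalized counts of 37.6 and 43.2 in the combined group and 3.95 and 7.96 in Abcg1 cKO. Per kilobase they were at 54.2 and 82.8 in the combined group and 5.69 and 15.2 in Abcg1 cKO. Of the type II cadherins, Cdh11 had a log2 ratio of 0.18 and Cdh6 one of -0.52, around the 0.05 of Cdh19. Cdh5, of endothelium, was the most abundant and had -0.02, Cdh9 had -0.04, Cdh18 had 0.22, Cdh22 had 0.25, Cdh24 had -0.50, Cdh20 had -0.94, and the scarce Cdh10 and Cdh12 had -0.09 and 0.41.

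Markers of other cell types that could share these genes or move with them are given beside the result. Oligodendrocytes of the central nervous system, which also make Mbp, have markers that were mostly at or near 0. Olig2, Mobp, Opalin and Ermn were listed at 0 in both groups, Mog was at 0.23 and 0, and Olig1 at 1.79 and 1.25. Cldn11, a tight junction gene that is also expressed outside oligodendrocytes, was the exception, at 161 and 157. Melanocytes, also a Sox10 lineage, had Tyr and Tyrp1 listed at 0 in both groups, Dct at 3.75 and 9.03 and Pmel at 7.25 and 11.7, while Mitf, which is not confined to melanocytes, was at 196 and 237. Lymphocyte markers, relevant because lymphoid cells can make Golli forms of Mbp, had lower means for 9 of 10 genes, with a median of -0.63, led by Ptprc (-0.20) and Lck (-0.01), and a summed mean count of 634 in the combined group and 536 in Abcg1 cKO. Their part in the Mbp value was not tested.

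Chromaffin cells are the neighbours of sustentacular cells, and their genes had larger ratios than most of the glial markers. Of 17 chromaffin cell genes, 16 had a higher mean in Abcg1 cKO and 12 were past 1.2-fold in that direction, with a median log2 ratio of 0.34. Over all genes with a mean of at least 5 the shares were 49.7% and 11.1%. Their summed mean normalized count was 173365 in the combined group and 235455 in Abcg1 cKO. Chgb and Chga, the granule proteins, had log2 ratios of 0.42 and 0.38. Th, which encodes tyrosine hydroxylase, was at 8765 and 14984, and Pnmt, which makes adrenaline, at 4908 and 8747. Of the 6 glial markers, 5 had a smaller log2 ratio than this median, and Foxd3 alone a larger one. Per 1000 normalized counts of chromaffin genes there were 1.16 of the 5 glial markers without Mbp in the combined group and 0.95 in Abcg1 cKO. Whether the amount of medulla in the glands differed was not tested.

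Among neuronal genes, which mark the nerve fibres and ganglion cells that glia accompany, 9 of 12 with a mean of at least 5 had a higher mean, with a median of 0.13, among them Snap25 (0.32) and Stmn2 (0.21). Adipocyte genes, a sign of fat on the gland, had higher means for 9 of 9, with a median of 1.14. Their summed count was 15639 in the combined group and 36369 in Abcg1 cKO. Over all genes with a mean of at least 5, 49.7% had a higher mean. Car3 and Cfd, the most abundant, had log2 ratios of 1.62 and 0.87. Capsule and fibroblast genes, led by Dcn (0.08) and Col1a2 (0.06), had a median of 0.07, and genes of the perineurial sheath, led by Slc2a1 (0.27) and Cldn1 (-0.11), had one of -0.11. The medians were -0.06 for endothelial genes, led by Plvap (-0.17) and Emcn (-0.20), and -0.03 for macrophage genes, led by Lyz2 (-0.08) and C1qb (-0.01). The cortex, which makes up most of the gland, had a median of 0.30 over 10 genes, led by Hsd3b1 (-0.15) and Star (0.44), and sterol biosynthesis had higher means for 19 of 19 genes with a median of 0.77, led by Dhcr7 (0.77). The part of fat in the glial values, among them the S100b means of 32.5 in the combined group and 39.3 in Abcg1 cKO, was not tested.

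**Figure D4:**
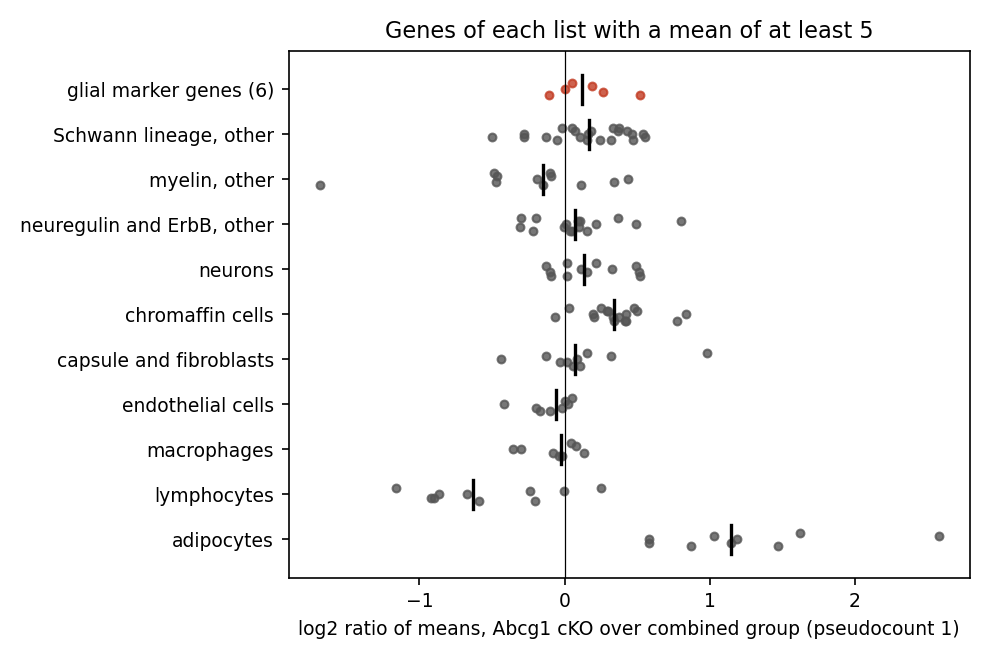
Log2 ratio of the group means (x axis, Abcg1 cKO over combined group, pseudocount 1) for each gene with a mean of at least 5, by list. Points are genes, black bars are list medians, and members are left out of the other glial lists. The medians are 0.12 for the 6 markers, 0.17 for other Schwann lineage genes, -0.15 for other myelin genes, 0.34 for chromaffin cells, -0.63 for lymphocytes and 1.14 for adipocytes.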

How the data were processed

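RNA of whole adrenals was sequenced by the study as stranded, polyA-selected libraries. The methods name both NovaSeq and NextSeq sequencers and do not say which libraries ran on which. According to the methods, the authors trimmed with cutadapt 4.0, used STAR 2.7.10a for alignment against mm10, tallied unique alignments by gene in HTSeq 0.13.5 and ran DESeq2 1.38.3 for normalization. The deposited signal used here is the mean normalized count per gene, made by the authors from counts divided by size factors and averaged over 4, 8 or all 12 libraries. The overall mean equalled the group means weighted 8 to 4 within 6.7e-05. Summed over all genes the means came to 18311615 in the combined group and 18889571 in Abcg1 cKO. Raw depth per library and the strand setting of the counting: not given in the sources used here.

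Another 12 columns of single-library values have names found in no sample label and were not used. The fold changes, standard errors and p-values of the authors' own comparison were not used either. The tests planned per sample were therefore not run, and the study's comparison is given as ratios of means. Log2 ratios used a pseudocount of 1. A mean of at least 5 was required for counts over lists and for the background, a limit set after the values were seen so as to hold all 6 members. Genes of like level had a mean between 0.5 and 2 times that of the member. Exon lengths and positions came from GENCODE M21 (GRCm38), matched by symbol for 23363 of 24421 genes, and may differ from the annotation the authors counted on. Python 3.11.15, pandas 2.3.3 and NumPy 2.4.6 were used. The calculation of the ratio was also run on simulated counts with planted changes well past 1.2-fold and no variation between animals. That run does not bear on differences near 1.2-fold.

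The members and the 20 gene lists were chosen with earlier results of these data known. Named were all members, the most abundant genes of the glial and pathway lists, SOX, S100, ErbB and cadherin relatives of the members with a mean of at least 1, Abcg1, Abca1, the leading genes of other cell types and, after their values were seen, further glial genes. A few listed genes count in their lists but are not reported here by name. Alternatives were pseudocounts of 0.1 and 10, minimum means of 10 and 50, centring on all genes or on chromaffin genes and, added later, counts per kilobase.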

Additional observations from a re-analysis of the deposited data

How the results depend on the processing

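Across 83 alternative values for the members and the glial, chromaffin and neuregulin lists, 67 moved by less than 0.1 on the log2 scale, or 1.5 times for a count, and kept their side of 1.2-fold. Part of this was fixed in advance. A minimum mean cannot change the ratio of a single gene that passes it, and centring on all genes took the same small amount from every gene. The number of members past 1.2-fold in the higher direction was 2. It was 0 with a pseudocount of 10, 1 over members with a mean of at least 10, 0 over members with a mean of at least 50, and 1 with counts per kilobase, an alternative chosen after seeing the data. Centred on the chromaffin list, it was 0, the number in the lower direction went from 0 to 3, the median log2 ratio of the members went from 0.12 to -0.22, and S100b turned from 0.27 to -0.072. This centring takes the same amount from every gene, so each ratio below the chromaffin median must become negative. The median of the members was 0.05 with a minimum mean of 10 or of 50, and the log2 ratio of Foxd3 was 0.26 with a pseudocount of 10, against 0.52. With centring on all genes and with a pseudocount of 0.1, the number past 1.2-fold was 2 and the median 0.12.

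No paired analysis was possible because values could not be assigned to replicates by name. For the same reason Abcg1 cKO against control alone, Abca1 cKO against control, leaving out each replicate, and count-based tests were not run. The raw depth is unknown, so no counting interval is given, and the differences were not set against the variation between animals.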
